A study of Drosophila melanogaster with 2 samples.

Results

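Sod2, Sod3 and Gtpx encode enzymes that remove reactive oxygen species, and their values were examined on 2 arrays that compared ethanol-sprayed with water-sprayed Drosophila melanogaster. The genes were found by their symbols in the platform annotation, and PHGPx is an older symbol of Gtpx. They are 3 of 2377 named genes, 3 of 8448 clones and 6 of 16896 spots. They were selected on these same arrays: Sod3 for ratios of large size and opposite sign, and Sod2 and Gtpx for the size of their mean ratios among antioxidant genes. Their ratios are therefore given as a description and carry no test. On array 1 the ratios of Sod2 and Sod3 were 1.17 and 1.02 and that of Gtpx was -0.76 on the log2 scale. On array 2 they were 0.21, -0.71 and -0.15.

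Superoxide is made mainly as a by-product of respiration, and superoxide dismutases turn it into hydrogen peroxide and oxygen. Sod2 is the manganese enzyme of the mitochondrial matrix, Sod3 is an extracellular copper and zinc enzyme, and the cytosolic copper and zinc enzyme is Sod1. Peroxidases then remove peroxides. Gtpx belongs to the glutathione peroxidase family, although the fly enzyme is known to draw its electrons from thioredoxin, and flies use thioredoxin reductase in place of glutathione reductase. Ethanol is known to raise oxidative load in animal tissues as it is metabolised.

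The flies were whole adult females of the wild-type strain Oregon-R, 4 to 10 days old, and the labels name no other allele or agent in either group. One group received a 2 mL mist of 99% ethanol from a Potter's tower, a chamber that settles a spray evenly on insects, and the control group a 2 mL mist of distilled water. RNA of about 240 pooled flies made each extract, and 3 washes of the RNA pellet with 80% ethanol were part of every extraction. The interval from spray to sampling is 4 h in the series text, 6 h in the labels of replicate 1 and not stated in those of replicate 2. Array 1 held ethanol RNA in Cy3 and water RNA in Cy5, and array 2 the reverse, so replicate and dye orientation cannot be told apart.

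Each deposited value is a signed log ratio of both channels of a spot, read as log2, so that 1 is a 2-fold difference. Which treatment is the numerator is not given in the sources used here. On each array the labels put water in channel 1 and ethanol in channel 2, and both sample titles name water before ethanol, without saying how the ratio was formed. The values were therefore first read as running the same way. If they are Cy5 over Cy3, array 2 has to be turned in sign, and both readings are given throughout. Positive and negative refer to the deposited ratio and do not say which treatment was higher. A ratio holds no expression level, so the labelled sex and tissue could not be checked against markers. In extracts of whole flies, fewer cells of a type and less RNA per cell cannot be told apart.

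Precision differed between the arrays. Adjacent spots, taken as duplicates of 1 clone, had a median difference of 0.161 on array 1 against 0.316 on array 2, and their Spearman correlation over 8448 clones was 0.60 and 0.12. These are descriptions across clones that share an array. The interquartile range of the named genes lay between -0.17 and 0.21 on array 1 and between -0.17 and 0.18 on array 2. Brightness of the spots was not used here, which leaves signal over background unknown, and 2 arrays limit the precision of every value. Neither the sequences of the clones nor their place in the transcripts were used here. RefSeq lists 2 transcripts for Sod2, 5 for Sod3 and 3 for Gtpx, which these values do not separate, and cross-hybridisation between Sod3 and its relative Sod1 was not tested.

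Sod2, listed as CG8905, was represented by 1 clone. Its spots gave 1.10 and 1.25 on array 1 and 0.10 and 0.31 on array 2. All 4 values were positive as deposited, and the array 1 values were the higher by far. The clone's 1.17 on array 1 corresponds to a 2.26-fold difference between the channels and the 0.21 on array 2 to a 1.15-fold difference, so the log ratio on array 1 was 5.68 times as large. The array 1 value ranked 21st in size among 2377 genes, and 43.6% of genes were at least as large as Sod2 on array 2. Its duplicate spots were 0.152 apart on array 1 and 0.206 on array 2, both below the median difference of all clones.

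With both arrays read the same way, the mean of Sod2 was 0.69 ± 0.68 (SD, n = 2), and 1.47% of genes had a mean at least as large in size. With array 2 turned it was 0.48 ± 0.98, and 2.78% of genes were as large. The mean thus stayed positive under both readings, with array 1 deciding its sign. Under either reading the SD was close to the mean or larger.

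Sod3, listed as CG9027, also had 1 clone. Its spots gave 0.96 and 1.08 on array 1 and -0.93 and -0.49 on array 2. Both spots changed sign between the arrays, and no value lay near 0. The clone's 1.02 on array 1 is a 2.02-fold difference and its -0.71 on array 2 a 1.64-fold difference in the opposite direction as deposited. It ranked 34th in size on array 1 and 42nd on array 2, and it was the only one of the 3 genes whose value passed 1.5-fold on both arrays. Its duplicate spots were 0.121 apart on array 1 and 0.444 on array 2, and on array 2 64.9% of clones had closer spots.

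Read the same way, the arrays cancelled to a mean of 0.15 ± 1.22 (SD, n = 2) for Sod3, and 44.2% of genes had a mean at least as large. With array 2 turned, the mean was 0.86 ± 0.22, a 1.82-fold difference, and 15 of 2377 genes (0.631%), Sod3 included, were as large. Of the 3 genes, Sod3 therefore had the smallest mean under the first reading and the largest under the second. Sod3 was selected for large ratios of opposite sign, which gives a large turned mean, so nothing is read from this rank. Which reading applies rests on the undocumented direction of array 2. Over the 2377 genes the Spearman correlation between the arrays was 0.003 as deposited and -0.003 with array 2 turned. As deposited, 1173 of these genes had opposite signs. The arrays thus did not match each other under either reading, and a known direction would not by itself make either mean reliable.

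Gtpx, listed as CG12013, had 1 clone with the most closely matched spots of the 3. They gave -0.75 and -0.76 on array 1 and -0.13 and -0.17 on array 2, so all 4 were negative as deposited. The spots were 0.0083 apart on array 1 and 0.040 on array 2, and only 2.88% and 6.66% of clones had closer spots. The clone's -0.76 on array 1 is a 1.69-fold difference, ranked 71st in size. Its -0.15 on array 2 is a 1.11-fold difference, and 55.2% of genes were at least as far from 0 on that array.

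The mean of Gtpx was -0.45 ± 0.43 (SD, n = 2) with the arrays read the same way and -0.30 ± 0.64 with array 2 turned. At least as large in size were 4.50% of genes in the first case and 14.6% in the second. Close duplicates on 1 array did not carry over to close arrays: the log ratio was 5.07 times as large on array 1 as on array 2.

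**Figure D1:**
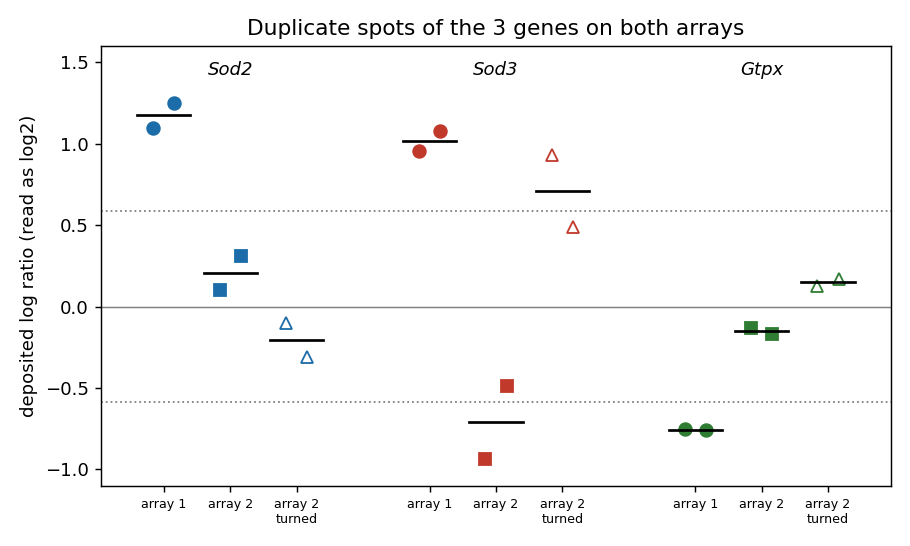
Deposited log ratio of each duplicate spot (points) and their mean (black bars) for the 3 genes, with array 1 as circles, array 2 as squares and array 2 with its sign turned as open triangles. Dotted lines mark 1.5-fold; all 6 spots pass it on array 1, while on array 2 a single Sod3 spot at -0.93 does.

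The 3 genes together spanned a wider range on array 1 than on array 2, although Sod2 and Sod3 differed more on array 2. On array 1 Sod2 exceeded Sod3 by 0.16 and Gtpx by 1.93. The 0.16 is close to the distance between the duplicate spots of either gene on that array. On array 2 Sod2 exceeded Sod3 by 0.92 and Gtpx by 0.36, and Sod3 lay below Gtpx by 0.56. Sod2 and Sod3 were thus neighbours in value on array 1 and the farthest apart of the 3 on array 2. Their order on array 1 was Sod2, Sod3 and Gtpx, and on array 2 as deposited it was Sod2, Gtpx and Sod3.

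All 6 spots passed 1.5-fold on array 1, against 11.1% of all spots, and 1 of 6 did so on array 2, against 12.1%. Both spots of a clone passed with one sign for 3 of 3 clones on array 1 and for 0 of 3 on array 2, where 4.45% and 1.36% of all clones did. As gene values, 3 of 3 passed 1.5-fold on array 1 beside 6.14% of named genes, and 1 of 3 on array 2 beside 4.75%. Of the 146 genes past this size on array 1, 140 were below it on array 2, as Sod2 and Gtpx were. Sod3 was 1 of 3 genes past 1.5-fold on both arrays with opposite signs, and 3 genes passed with one sign, each 0.126% of those named. The genes were chosen from this contrast, so nothing is read from their counts against these shares.

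**Figure D2:**
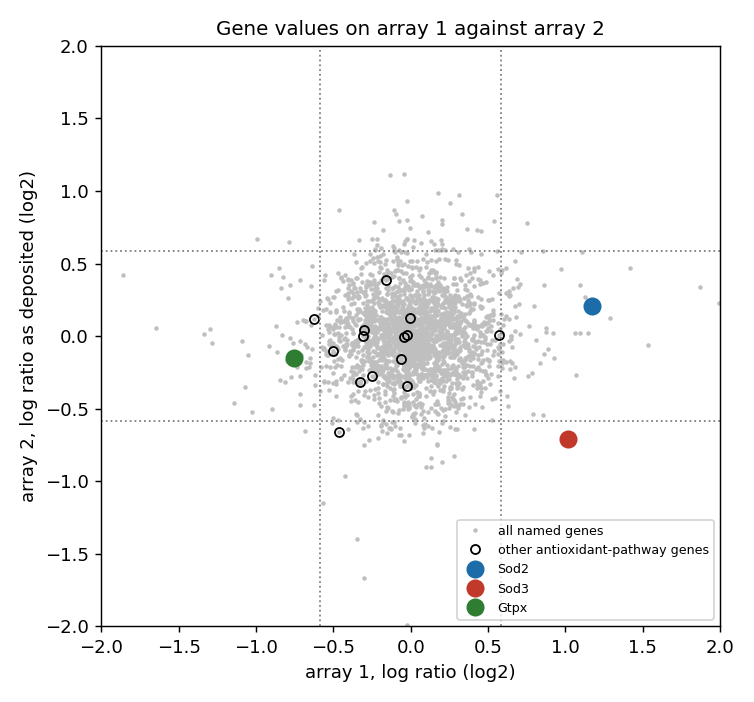
Gene log ratio on array 1 (horizontal, log2) against array 2 as deposited (vertical, log2) for named genes (grey), other antioxidant-pathway genes (open circles) and Sod2, Sod3 and Gtpx (coloured). Dotted lines mark 1.5-fold, and 11 genes beyond 2 on either axis are not drawn; Sod2 and Gtpx lie far from 0 along array 1 only, and Sod3 along both axes.

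Values of the clones listed around each gene were examined because neighbouring rows may share a region of the slide. How row order maps to slide position is unknown here. Around Sod2, the next clones in row order were also high on array 1: Mos, a kinase of oocyte maturation, stood at 1.11 and dnc, a cyclic AMP phosphodiesterase, at 1.09. On array 2 Mos was at 0.58 and dnc at 0.02. Of the 20 clones within 10 rows of clones on either side of Sod2, 10 passed 1.5-fold on array 1, where 8.32% of all clones did, and 14 were positive. Their array 1 median was 0.29, and only 0.402% of clones had a local median as high. No more than 20 of the 8448 clones had at least 10 such neighbours. On array 2 none of these 20 clones passed 1.5-fold, and their median was -0.08.

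After subtraction of these local medians, Sod2 was at 0.88 on array 1 and 0.28 on array 2, with a mean of 0.58. Before subtraction it lay above all 20 of these clones on array 1. The part of the local level in the Sod2 ratio was not tested further.

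Sod3 lay outside the range of the clones around it on both arrays, and Gtpx did so on array 1 only. The genes were selected for the size of their ratios, so nothing more is read from this. Around Sod3 the 20 clones ran from -0.30 to 0.69 on array 1 with a median of 0.05, and from -0.56 to 0.47 on array 2 with a median of -0.05. Sod3 lay above all of them on array 1 and below all of them on array 2. Around Gtpx they ran from -0.69 to 0.61 with a median of 0.03 on array 1, and Gtpx at -0.76 lay below all of them. On array 2 they ran from -0.66 to 0.50, and Gtpx at -0.15 lay within that range. Less the local median, Sod3 was at 0.96 and -0.66 and Gtpx at -0.78 and -0.11, close to their values as deposited.

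**Figure D3:**
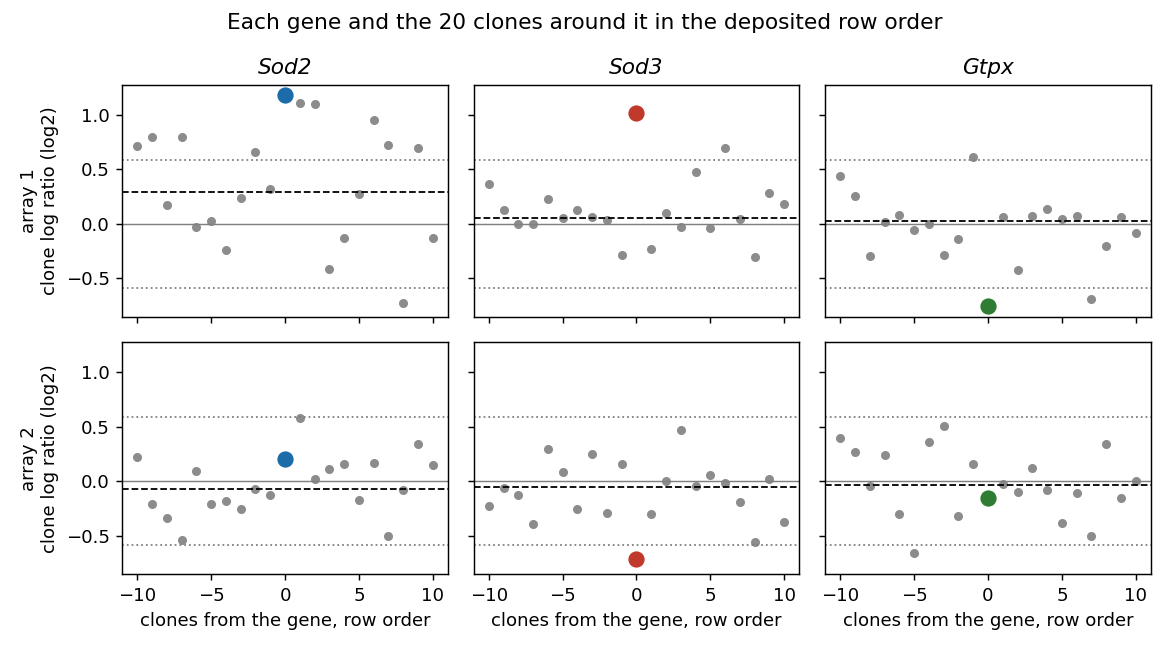
Clone log ratio (vertical, log2) by distance in clones from each gene in row order (horizontal), with array 1 above and array 2 below. Coloured points are Sod2, Sod3 and Gtpx, grey points the 20 clones around each, dashed lines their median and dotted lines 1.5-fold; on array 1 the clones around Sod2 have a median of 0.29, against 0.05 around Sod3 and 0.03 around Gtpx.

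The genes with the most similar pair of values were found by the distance over both arrays, which does not depend on the sign given to array 2. Nearest to Sod2 were Hsc70-1, a cognate of the Hsp70 chaperones, at 1.12 and 0.27, and Tm2, a tropomyosin, at 1.29 and 0.12. Nearest to Sod3 were Cdk9, the kinase of a transcription elongation factor, at 0.86 and -0.55, and CG46025 at 0.79 and -0.54. The clone of CG46025 lay 7 clones from Sod2 in row order, within the stretch of high array 1 values, and its duplicate spots were 1.05 apart on array 2. Nearest to Gtpx were Tsp42Eg, a tetraspanin, at -0.75 and -0.13, and Mipp1, an inositol polyphosphate phosphatase, at -0.71 and -0.13. Duplicate spots on array 2 were 1.08 apart for Tsp42Eg, 0.81 for Tm2, 0.65 for Cdk9 and 0.29 for Mipp1. For the widest clone of Hsc70-1 the distance was 0.33, and the median over all clones was 0.316. The distances were 0.082 and 0.139 for Sod2, 0.230 and 0.283 for Sod3, and 0.022 and 0.051 for Gtpx. With 2 values a gene, such likeness describes a position in the plot and nothing more.

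The other genes of these pathways came from 10 lists holding 114 genes, of which 14 besides Sod2, Sod3 and Gtpx were measured under a name. None of the 14 was called in either direction between ethanol and water, by limma with Benjamini-Hochberg adjustment over 2377 genes at 0.05, with array 2 as deposited (lowest adjusted p = 0.55) or turned (lowest limma adjusted p = 0.94). Over all genes, limma called 0 (0%) under each reading. At an unadjusted p under 0.05 limma counted 1 of the 14 with both arrays the same way and 0 with array 2 turned. Over all 2377 genes it counted 136 and 95. On array 1, 13 of the 14 were negative, with a median of -0.21, while 49.0% of all genes were negative and their median was 0.01. On array 2, 7 of 14 were negative as deposited, with a median of -0.003 beside 0.01 over all genes. The excess of negative values was thus seen on array 1 only. The lists were chosen with earlier results of these data known, so nothing is read from it about the pathways. The negative sign on array 1 was shared by Gtpx and opposite to that of Sod2 and Sod3.

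Among the dismutase genes, Sod1 was not analysed here. Ccs, which encodes the chaperone that loads copper into the copper and zinc dismutase, was at -0.47 on array 1 and -0.66 on array 2. Its mean was -0.56 ± 0.14 (SD, n = 2) as deposited, with a limma adjusted p of 0.55, and 0.10 with array 2 turned. It was the one gene of the 14 at an unadjusted limma p under 0.05, as were 136 of all 2377 genes. It was also the one of the 14 past 1.5-fold on array 2. Ccs and Sod3 were alike on array 2 and opposite on array 1.

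Of the peroxide-removing enzymes, catalase was not analysed here. Prx3, the mitochondrial peroxiredoxin, was at -0.02 on array 1 and -0.34 on array 2, and so near 0 on array 1, where Sod2 was at 1.17. The thioredoxin gene Trx2 was at -0.51 and -0.10, negative on both arrays like Gtpx and nearer to 0, and its spots were 0.036 and 0.041 apart. TrxT, a thioredoxin of the male germ line, was at -0.02 and 0.01. Gclm, the modifier subunit of the enzyme that makes the glutathione precursor, was at 0.57 and 0.006, and was the only one of the 14 with a positive value on array 1.

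The glutathione S-transferases, which join glutathione to foreign compounds, stood at -0.06 and -0.16 for GstE2, -0.25 and -0.28 for GstE13 and -0.30 and 0.04 for GstZ2. None passed 1.5-fold on either array. The duplicate spots of GstE13 were 0.040 apart on array 1 and 0.751 on array 2. Among regulators, Keap1, the inhibitor of the antioxidant transcription factor cnc, was at -0.33 and -0.32 and thus nearly equal on both arrays as deposited. Its duplicate spots were 0.111 apart on array 1 and 0.390 on array 2, which limits this likeness. The sestrin gene Sesn was at -0.31 and 0.001, and foxo, a transcription factor of the stress and insulin response, at -0.62 and 0.12, the one value of the 14 past 1.5-fold on array 1. The gene dj-1beta, which protects against oxidative damage, was at -0.01 and 0.13. MTF-1, the metal-responsive transcription factor, was at -0.04 and -0.007, and Aldh-III, an aldehyde dehydrogenase gene, at -0.16 and 0.39. No listed gene of superoxide sources or of NADPH supply was measured under a name.

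**Figure D4:**
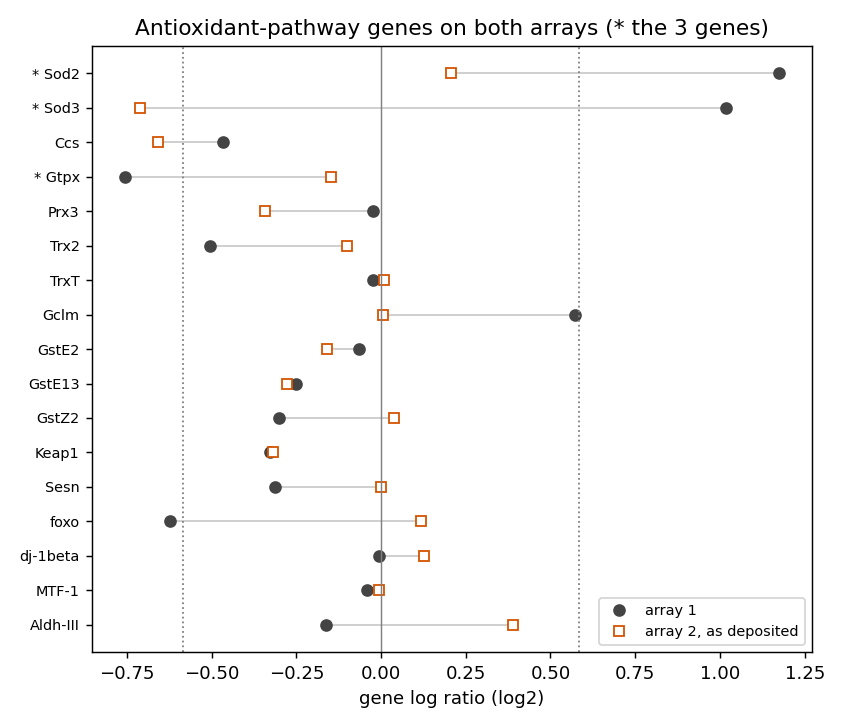
Log ratio (horizontal, log2) of 17 antioxidant-pathway genes on array 1 (filled circles) and on array 2 as deposited (open squares), with Sod2, Sod3 and Gtpx starred and dotted lines at 1.5-fold. Sod2 at 1.17 and Sod3 at 1.02 lie to the right on array 1, where 13 of the other 14 genes lie left of 0. On array 2, 7 of the 14 do.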

How the data were processed

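Gene expression was measured on 2 spotted 2-colour arrays, each with 1 ethanol and 1 water extract. The authors deposited 1 log ratio per spot, read here as log2 from the values, with medians of -0.0009 and 0.0002. The sources used here do not give the background correction, normalization, log base or direction. Gene names came from the platform annotation, updated through gene identifiers to the RefSeq Release 6 gene table, and all 2377 symbols matched. Of the spots, 152 had more than 1 symbol and 11078 lacked one, and these gave no gene value. Adjacent spots were averaged as clones, then clones as genes. The mean ratio was tested against 0 with limma 3.58.1 in R 4.3.3 (lmFit and eBayes, Benjamini-Hochberg adjustment over all genes at 0.05), checked on simulated data. The series text calls the arrays biological replicates without further detail, so p-values measure only the spread between these samples. In eBayes the spread of each gene was drawn mostly from that of all genes. The prior degrees of freedom, the weight of that shared spread, were 14.8 as deposited and 9.75 with array 2 turned. Members and lists were chosen with earlier results of these data known. Named genes were the 3 genes, the 2 nearest to each, all measured list genes and annotated row neighbours. Of 114 listed genes, 112 matched the gene table. Alternatives were the sign of array 2, scaling, medians of spots, filters on wide or discordant spots, natural logs, robust eBayes, other folds, each array alone and, added after seeing the data, local medians. Sequences and genome coordinates were not used here.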

Additional observations from a re-analysis of the deposited data

How the results depend on the processing

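The means of Sod2 and Gtpx ran from 0.21 to 1.17 and from -0.76 to -0.15, where the extremes are each array alone as deposited. Their signs held under these alternatives. Array 2 alone and turned in sign would reverse both, at -0.21 for Sod2 and 0.15 for Gtpx. The mean of Sod3 ran from -0.71 without replicate 1, as deposited, to 1.02 without replicate 2. Read as natural logs, the means were 0.996, 0.22 and -0.65. Neither spot filter removed any of the 3 genes. Each has 1 clone of 2 spots, so the filters and the medians of spots left their values unchanged. Genes past 1.5-fold on both arrays with one sign numbered 1 among concordant clones (spots within 0.5), 6 after local medians were subtracted, 36 as natural logs, 144 at 1.2-fold and 0 at 2-fold, and on 1 array alone 113 to 146. With opposite signs they numbered 1 among concordant clones, 24 as natural logs, 143 at 1.2-fold and 0 at 2-fold. Limma called 8 genes once clones with any spot beyond 3 in size were removed, 5 among concordant clones and 18 after local medians were subtracted, and 0 under the other settings. The prior degrees of freedom were 76.8 in the fit that called 8 genes. They became infinite in the fits that called 5 and 18, so a gene's own spread no longer entered there. The cause of these calls was not tested. Pathway genes called numbered 0 in each of these fits, which tested all 14 of them except among concordant clones, where 12 were tested (the smallest limma adjusted p of any setting was 0.326). With 1 array no limma fit could be made. Signal over background was not used here.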
